A study of Mus musculus with 2 samples.

Results

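Checkpoint receptors and their ligands are described here through 10 genes, taken by their symbols from the 32285 genes of 2 mouse single-cell RNA libraries. The 5 receptor genes, Pdcd1, Ctla4, Lag3, Havcr2 and Tigit, were followed across T cell subsets, and the 5 ligand genes, Cd274, Pdcd1lg2, Cd80, Cd86 and Lgals9, across myeloid and B cell types. Each group was 1 library. LYZKL came from mice with Lkb1fl/fl among their tumour alleles that were lethally irradiated and given bone marrow of Tmem173fl/fl;Lyz2-Cre donors, and WTKL from mice of the same tumour alleles given Tmem173fl/fl marrow without Cre. Tumours were started in both by intranasal Ad-Cre, an adenovirus that carries the Cre recombinase, and the labelled time was 8 weeks. The WTKL label also names tamoxifen, which the LYZKL label does not. The title of the series concerns STING and CD38 in macrophages and the survival of Treg cells. Tmem173 encodes STING, the adaptor of cytosolic DNA sensing, and Lyz2-Cre acts in the myeloid lineage, so the floxed Tmem173 alleles are shared by both groups and only the Cre differs by genotype. In such chimeras radiation-resistant cells of the host can remain, and how many mice went into a library is not given in the sources used here.

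Checkpoint receptors lower T cell responses when they meet their ligands on antigen-presenting, myeloid or tumour cells. PD-1, encoded by Pdcd1, binds PD-L1 (Cd274) and PD-L2 (Pdcd1lg2) and recruits phosphatases that dampen T cell receptor and CD28 signalling, while CTLA-4 (Ctla4) takes CD80 and CD86 away from CD28 and is made constantly by regulatory T (Treg) cells. LAG-3 (Lag3) binds MHC class II, TIM-3 (Havcr2) has galectin-9 (Lgals9) among its reported ligands and is also made by myeloid cells, and TIGIT (Tigit) competes with CD226 for PVR. In lung tumours these receptors mark activated, regulatory and long-stimulated T cells, and PD-L1 is induced by interferon gamma, with IRF1 among the factors involved.

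The regions just before 3 of the genes are shown because Pdcd1 and Cd274 encode PD-1 and its main ligand, and because Lgals9 alone among the members with a sequence held an interferon-type element. Of the 10 members, 8 had a promoter in the RefSeq table of GRCm38.p6, and the 250 bases before each annotated start were searched on both strands for GGAAA, the core bound by NFAT factors, and for 2 copies of GAAA with any 2 bases between them, the form of an interferon-stimulated response element. These motifs were found in 55.6% and 2.98% of 32851 promoters of the same length, so a GGAAA match is common. Capitals mark GGAAA for Pdcd1 and Cd274 and the GAAA pair for Lgals9, read on the opposite strand for Pdcd1 and Lgals9, and each sequence is written on the strand of its gene.
Pdcd1, chr1:94052554-94052803, minus strand: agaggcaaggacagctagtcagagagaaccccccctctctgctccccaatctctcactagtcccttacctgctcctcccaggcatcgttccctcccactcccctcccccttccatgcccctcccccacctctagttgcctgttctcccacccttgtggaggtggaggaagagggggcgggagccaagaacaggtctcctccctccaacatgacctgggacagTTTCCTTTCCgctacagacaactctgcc
Cd274, chr19:29367188-29367437, plus strand: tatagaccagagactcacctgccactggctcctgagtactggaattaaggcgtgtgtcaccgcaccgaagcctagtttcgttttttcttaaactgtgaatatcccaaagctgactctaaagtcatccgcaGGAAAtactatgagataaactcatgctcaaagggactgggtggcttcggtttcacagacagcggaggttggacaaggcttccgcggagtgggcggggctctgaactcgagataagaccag
Lgals9, chr11:78984925-78985174, minus strand: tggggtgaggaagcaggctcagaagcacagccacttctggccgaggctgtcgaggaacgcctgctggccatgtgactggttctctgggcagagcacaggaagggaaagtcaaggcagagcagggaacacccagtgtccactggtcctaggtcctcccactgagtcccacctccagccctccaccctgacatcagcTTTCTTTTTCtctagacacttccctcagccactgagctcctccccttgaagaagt
Pdcd1 held 2 GGAAA matches in a row, at -28 and -23 bases from its start, and Cd274 held 1 at -120. No spaced GAAA pair was in the window of Cd274, which says nothing of elements elsewhere in that gene. The GAAA pair of Lgals9 was at -55, and its GGAAA, left in lower case, at -148.

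The authors deposited raw counts of unique molecular identifiers (UMIs), 93584629 in LYZKL and 77181312 in WTKL. After filters on detected genes, mitochondrially coded UMIs and doublets, 12004 LYZKL and 10850 WTKL cells remained, and clustering without the 10 members gave 19 clusters. The cells are labelled as T cells sorted for CD4 and CD8, yet 30.5% of the LYZKL and 27.3% of the WTKL cells lay outside the 11 T-lineage clusters: 3 neutrophil-like clusters held 18.5% and 13.1% of cells, 3 phagocyte clusters 8.35% and 8.31%, and B-like and plasma-like cells 3.62% and 5.88%. Clusters are called X-like from marker lists, since no annotation of cells was among the files, and the names of the Ccl3 neutrophil-like, Saa3 macrophage-like and Penk and Nrgn clusters rest on the level of the whole list, with no list gene among their 10 leading genes. Leading genes of 2 T-lineage clusters include constant segments of the gamma chain, Tcrg-C2 in the CD8 tissue-type-like and Tcrg-C1 in the Il17a and Il17f cluster. The delta chain segment Trdc stood at only 1.49 and 3.12 CPM in these 2 clusters over both libraries, beside 843 and 996 CPM of Trac. In the Treg-like cluster Trdc stood at 53.6 CPM, and 6.16% of its LYZKL against 1.35% of its WTKL cells had a Trdc UMI. The libraries shared 100 barcodes, and of the 75 kept in both, 4 fell in the same cluster. Tmem173 itself stood at 3.63 and 18.6 CPM in all neutrophil-like cells of LYZKL and WTKL, at 26.1 and 34.0 CPM in Saa3 macrophage-like cells, at 67.3 and 57.6 CPM in C1q and Vcan macrophage-like cells and at 48.1 and 28.5 CPM in all T-lineage cells. The floxed exons are not named in the labels, and 3′ reads from outside a deleted part do not check the deletion.

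Levels are UMIs of a gene per 1000000 UMIs of the cluster (CPM), summed over the cells of a library, with exact Poisson intervals at 95%, and ratios are LYZKL over WTKL with exact conditional binomial intervals. With 1 library per group no test between the groups exists. The intervals cover counting error alone, and differences between mice, sorts or libraries cannot be told apart from differences between genotypes. A gene in a cluster is written as higher or lower here when its ratio was at least 1.5-fold either way, its interval left out 1 and at least 20 UMIs were counted over both libraries.

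Receptor transcripts stood at similar levels in most T-lineage clusters of the 2 libraries, and the exceptions were mainly those of Pdcd1 and Lag3. Of 55 pairs of a receptor and a cluster, 51 had enough UMIs. In LYZKL 7 of them were higher and 3 lower, against 3.76% and 3.71% of 113677 pairs of any gene and a T-lineage cluster. The median log2 ratio of the 51 pairs was 0.21, beside 0.01 over all genes, and 36 of the 51 were above 0. In cycling-like cells all 5 receptors had a ratio above 0, and in the CD4 follicular-type-like cells none of the 4 with enough UMIs had.

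**Figure D1:**
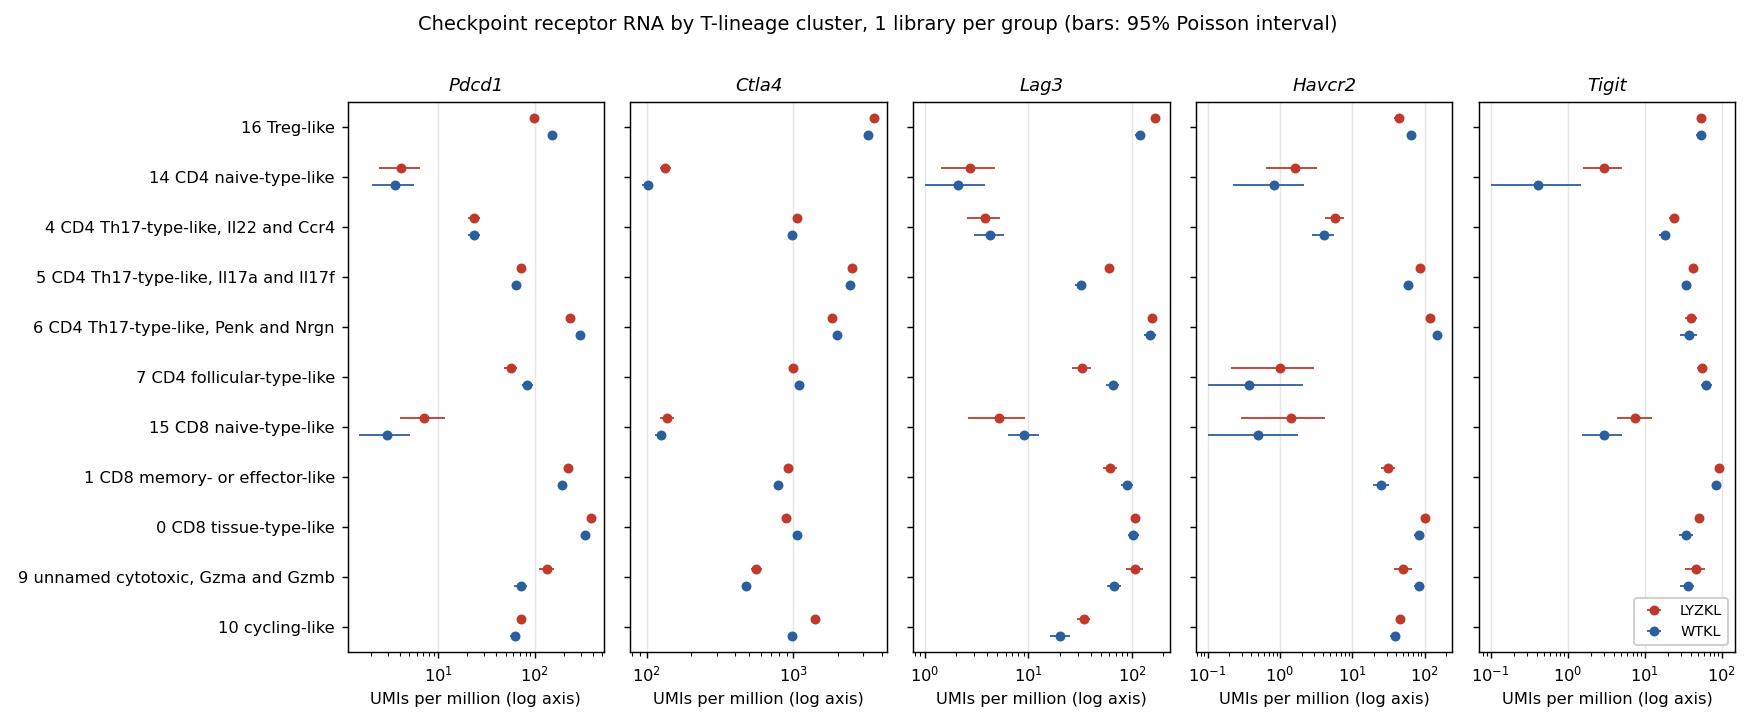
Level of the 5 receptor genes (CPM on a log axis, 1 panel per gene) in each of the 11 T-lineage clusters, with the LYZKL library in red above the WTKL library in blue and bars for the 95% Poisson interval. Ctla4 was highest in Treg-like cells (3545 and 3208 CPM) and Pdcd1 in CD8 tissue-type-like cells (380 and 329 CPM), and both naive-type-like clusters were at the low end for each receptor.

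Pdcd1 was highest in the CD8 tissue-type-like cluster, which carries Itga1, Xcl1 and Klrk1. There it stood at 380 CPM (368 to 393; 3611 UMIs) in LYZKL and 329 CPM (307 to 352; 837 UMIs) in WTKL, a log2 ratio of 0.21 (0.10 to 0.32). The cells of that cluster were mostly LYZKL cells, 2117 against 525, so the cluster may in part describe that library. In WTKL the next cluster in order, the CD4 Th17-type-like cells marked by Penk and Nrgn, stood at 293 CPM, against 230 CPM in LYZKL. The CD8 memory- or effector-like cluster, marked by Gzmk and Eomes, had 219 and 189 CPM. After each cell was thinned to 1000 UMIs, a Pdcd1 UMI was found in 28.6% and 24.9% of the CD8 tissue-type-like cells (67.7% and 60.4% unthinned), against 0.499% and 0.777% of neutrophil-like cells, which should lack the gene. Naive-type-like cells lay at or below that background, with 0.361% and 0.176% of CD8 and 0.252% and 0.186% of CD4 cells.

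Between the libraries Pdcd1 went different ways in different subsets. In Treg-like cells, marked by Foxp3 and Ikzf2, it was lower in LYZKL at 97.9 CPM (436 UMIs) than the 151 CPM (536 UMIs) of WTKL, a log2 ratio of -0.63 (-0.81 to -0.44), in a cluster where 3.61% of all genes tested were lower, and 8.88% against 14.7% of thinned cells had a UMI. The ratio ran from -0.79 to -0.50 over 15 alternatives and was under 1.5-fold in 3 of them, and without the cells that had a Trdc UMI it was -0.70. The cluster of cytotoxic lymphocytes led by Gzma and Gzmb was left unnamed because NK markers outnumbered either CD8 list among its 10 leading genes. By the level of the whole list, however, the CD8 tissue-type class came first and CD8 memory or effector second, and Cd8a stood at 444 CPM over both libraries. In this cluster Pdcd1 was higher at 133 CPM (130 UMIs) in LYZKL against 71.6 CPM (178 UMIs) in WTKL, a log2 ratio of 0.89 (0.55 to 1.22), where 9.74% of all genes tested were higher. The summed level of 7 pan-T markers there was 3669 CPM in LYZKL and 5512 CPM in WTKL, the widest gap among the T-lineage clusters, and its part in this and the other values of that cluster given below was not tested. The thinned shares of that cluster, 4.39% of 114 LYZKL cells and 5.47% of 384 WTKL cells, did not show that order. The call in CD8 naive-type-like cells (7.11 and 2.94 CPM) rested on 15 and 12 UMIs at a background share, in a cluster where 4.78% of genes were higher. The follicular-type-like cluster stayed under 1.5-fold, at 56.2 and 83.7 CPM (log2 ratio -0.57).

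Ctla4 was the receptor with the most UMIs, 79140 in LYZKL and 59109 in WTKL, and no T-lineage cluster differed by 1.5-fold. Treg-like cells led with 3545 CPM (3490 to 3601) and 3208 CPM (3150 to 3268), and a UMI was found in 87.5% and 85.1% of their thinned cells. The Il17a and Il17f cells followed with 2489 and 2412 CPM, then the Penk and Nrgn cells with 1830 and 1992 CPM. Cycling-like cells had the widest ratio, with 1405 CPM in LYZKL and 978 CPM in WTKL (log2 ratio 0.52, 0.47 to 0.58). The CD8 tissue-type-like cells had 893 and 1065 CPM, and the naive-type-like clusters between 102 and 138 CPM. Neutrophil-like clusters, which should hold no Ctla4, had 44.2 to 60.1 CPM in LYZKL and 74.6 to 114 CPM in WTKL, and 3.90% and 4.88% of their thinned cells had a UMI. The naive-type-like shares of 8.73% to 10.1% were above that background.

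Lag3 had the most called pairs of the receptors, 3 higher and 1 lower of 11. In the Il17a and Il17f cells it was higher in LYZKL, at 59.6 CPM (510 UMIs) against 31.9 CPM (249 UMIs) in WTKL, a log2 ratio of 0.90 (0.68 to 1.12), and 5.20% against 2.34% of thinned cells had a UMI. Of all 11457 genes tested in that cluster 3.15% were higher. Median depth there was 6646 UMIs a cell in LYZKL and 4670 in WTKL. Over 13 alternatives the ratio ran from 0.57 to 1.30 and passed the threshold in 12. In follicular-type-like cells Lag3 was lower in LYZKL, at 32.5 CPM (96 UMIs) against 64.8 CPM (172 UMIs) in WTKL, a log2 ratio of -0.996 (-1.37 to -0.63), with a UMI in 2.41% and 6.02% of thinned cells. In that cluster 4.33% of 9775 genes were lower. The call held in 13 of 14 alternatives and was lost with classes from marker UMIs, where the ratio was -0.30.

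The remaining Lag3 values were close or rested on small clusters. Treg-like cells had 165 and 119 CPM (log2 ratio 0.48, 0.30 to 0.65), the highest level in LYZKL, and the Penk and Nrgn cells, which led in WTKL, had 155 and 149 CPM, whose intervals overlap. CD8 tissue-type-like cells had 107 and 103 CPM. The CD8 memory- or effector-like cluster stood at 61.2 and 89.6 CPM (log2 ratio -0.55). Lag3 was higher in LYZKL in the Gzma and Gzmb cluster (106 and 66.8 CPM, log2 ratio 0.67, 0.30 to 1.03) and in cycling-like cells (34.1 and 20.3 CPM, 0.75, 0.37 to 1.13), where 2.46% of genes were higher. In the Gzma and Gzmb cluster the call did not hold in 6 of 12 alternatives.

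Havcr2 differed from the other receptors in having phagocytes among its sources. The Penk and Nrgn cells led the T-lineage with 119 and 148 CPM, and CD8 tissue-type-like cells had 102 and 82.9 CPM. The C1q and Vcan macrophage-like cells stood among them with 100.9 and 83.1 CPM. Within the phagocytes, which were also divided into 16 subclusters, Havcr2 was highest in the subcluster led by Plac8 and Ccr2 (183 CPM in each library) and in the nonclassical monocyte-like cells led by Adgre4 and Ace (151 and 166 CPM). Havcr2 was lower in LYZKL in the Gzma and Gzmb cluster, at 51.0 CPM (50 UMIs) against 83.3 CPM (207 UMIs), a log2 ratio of -0.71 (-1.18 to -0.25), where 5.75% of genes were lower. Treg-like cells had 44.2 and 65.4 CPM (-0.56, -0.84 to -0.28), and the Il17a and Il17f cells 86.2 and 58.7 CPM (0.55, 0.38 to 0.72), both under 1.5-fold.

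Tigit was the least abundant receptor by UMIs, with 2207 and 1443. It was highest in CD8 memory- or effector-like cells (93.9 and 85.4 CPM), then in follicular-type-like (55.9 and 63.7 CPM) and Treg-like cells (54.6 and 53.5 CPM), and the intervals of the libraries overlap in each of these. The CD8 tissue-type-like cluster stood at 50.2 CPM in LYZKL and 35.0 CPM in WTKL (log2 ratio 0.52, 0.19 to 0.87). Tigit was higher in LYZKL in cycling-like cells (26.8 and 17.9 CPM, 0.59, 0.18 to 1.00), at the edge of the threshold, and held there in 4 of 14 alternatives. The thinned shares of 1.91% and 2.40% did not show that order, and that of WTKL was not above background. The call in CD8 naive-type-like cells (7.58 and 2.94 CPM) came from 16 and 12 UMIs at a background share.

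**Figure D2:**
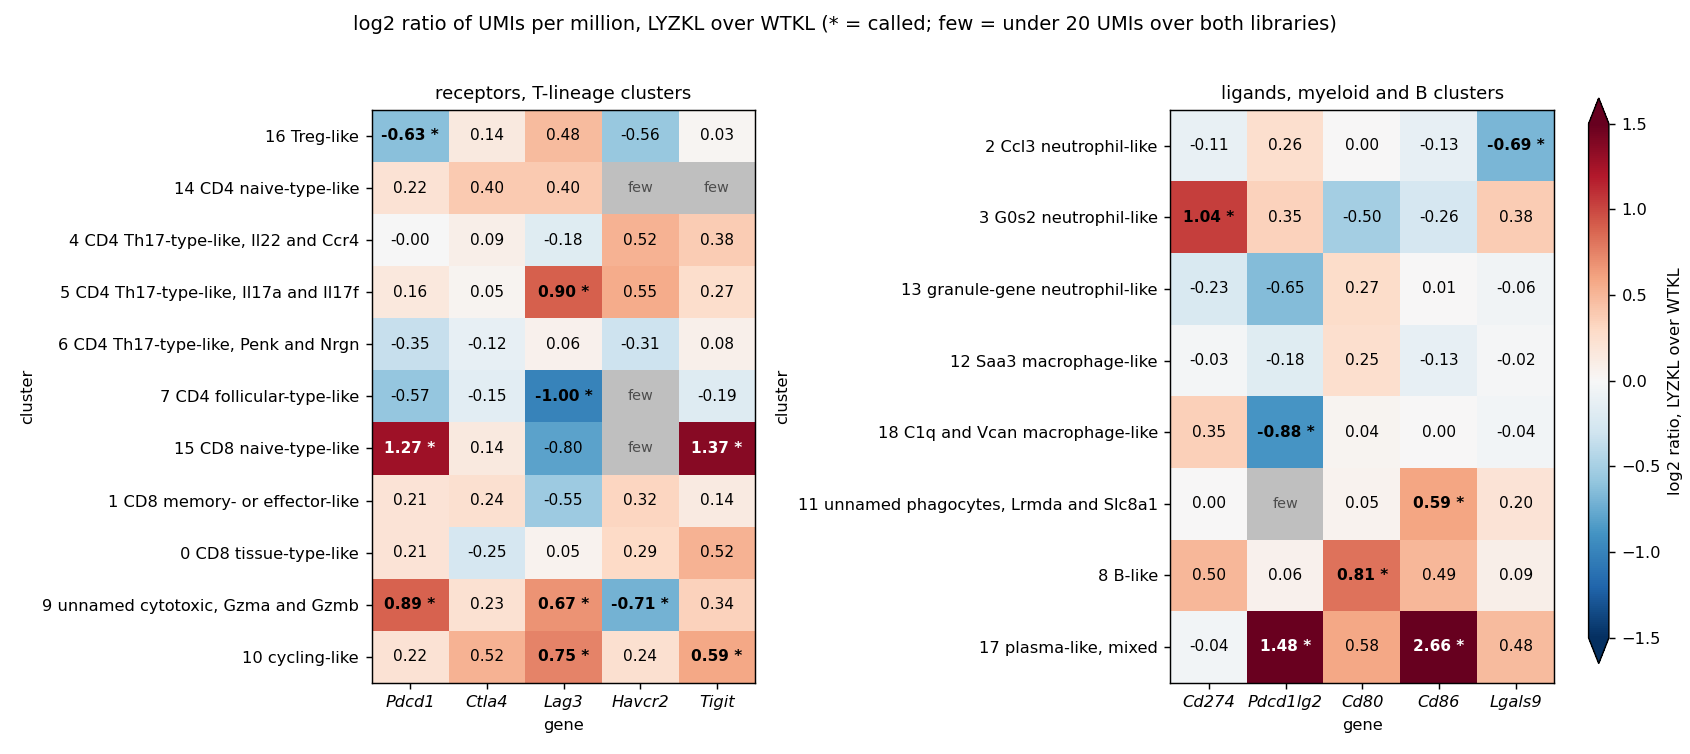
Log2 ratio of CPM, LYZKL over WTKL, for each receptor in each T-lineage cluster (left) and each ligand in each myeloid or B cluster (right); colour and number give the ratio, an asterisk marks a ratio of at least 1.5-fold whose interval leaves out 1, and "few" marks under 20 UMIs. The receptor panel has 7 pairs higher and 3 lower and the ligand panel 5 higher and 2 lower, with Cd274 in G0s2 neutrophil-like cells at 1.04.

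Pooled over all T-lineage cells the receptors had wider ratios with each library's own cluster sizes than with the same cluster weights in both. Pdcd1 stood at 130 CPM in LYZKL and 82.4 CPM in WTKL, a log2 ratio of 0.66 (0.60 to 0.72), and with the same weights the ratio was 0.05. The pooled ratio of Lag3 was 0.59 and 0.23 with equal weights, that of Havcr2 0.53 and 0.13, that of Tigit 0.39 and 0.26 and that of Ctla4 0.19 and 0.08. The 3 CD8-type clusters include the CD8 memory- or effector-like cells, which had 112 CPM of Cd4 beside 321 CPM of Cd8a over both libraries, against 14.8 and 8.08 CPM of Cd4 in the tissue-type-like and naive-type-like cells. In these 3 clusters Pdcd1 had 295 and 144 CPM, a pooled ratio of 1.03 that was 0.22 with equal weights, and Havcr2 had 73.8 and 30.3 CPM, 1.28 that was 0.30. The CD8 tissue-type-like cluster held 17.6% of kept cells in LYZKL and 4.84% in WTKL, and 47.6% and 20.3% of all Pdcd1 UMIs. The sort can set these shares of cells.

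**Figure D3:**
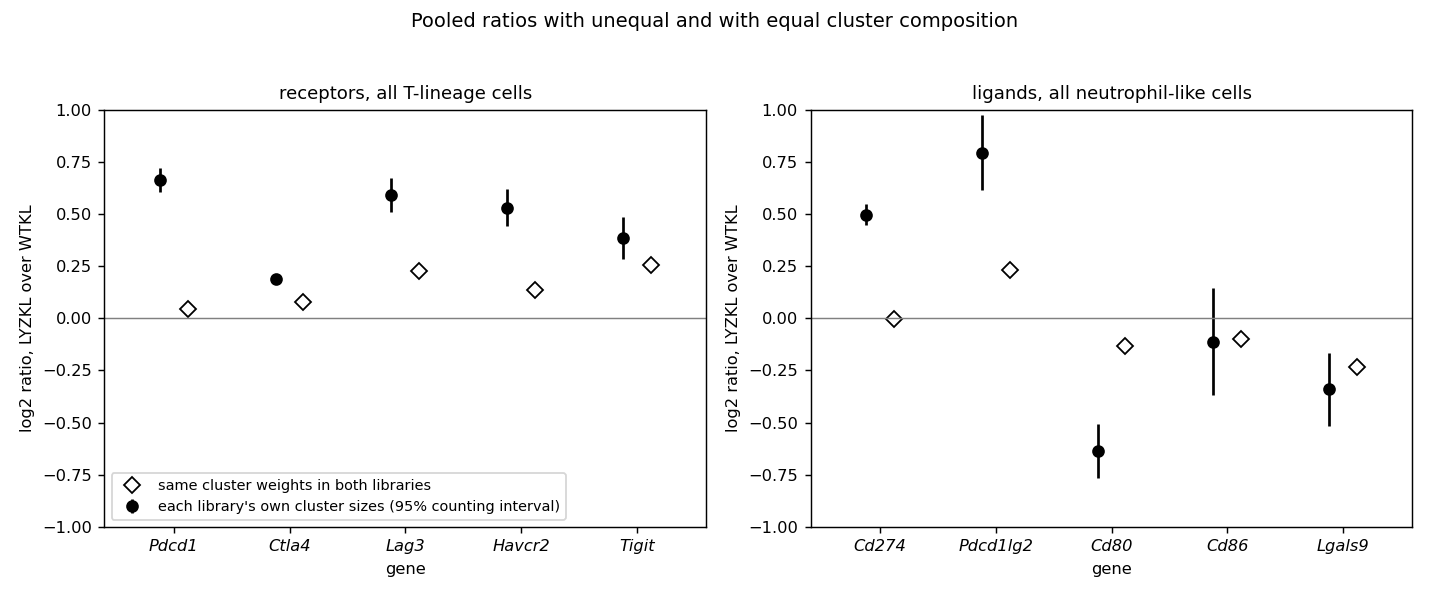
Log2 ratio of CPM, LYZKL over WTKL, of each receptor over all T-lineage cells (left) and of each ligand over all neutrophil-like cells (right), with each library's own cluster sizes (filled points, bars for the 95% counting interval) and with the same cluster weights in both (open diamonds). With equal weights Pdcd1 was at 0.05, against 0.66 with own sizes, and Cd274 at -0.0047, against 0.50.

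Receptors were also counted together in each cell, after thinning to 2000 UMIs. At least 2 of the 5 receptors had a UMI in 55.2% and 57.7% of the Penk and Nrgn cells, in 51.1% and 45.8% of CD8 tissue-type-like cells, in 38.7% and 38.1% of CD8 memory- or effector-like cells and in 35.1% and 39.2% of Treg-like cells of LYZKL and WTKL. In the CD4 naive-type-like cells this share was 0.513% and 0.774%. The Il17a and Il17f cells had 33.5% in LYZKL and 25.4% in WTKL, and cycling-like cells 25.0% and 14.98%. Among CD8 tissue-type-like cells, Pdcd1 was found in 55.5% (49.5 to 61.4) of LYZKL cells with a Lag3 UMI and 47.7% (45.3 to 50.2) of those without, and in WTKL in 52.8% (40.7 to 64.7) and 38.9% (34.2 to 43.8). Exact Clopper-Pearson intervals are given. In Treg-like cells Pdcd1 was found in 11.9% (3.98 to 25.6) of 42 LYZKL cells with Havcr2 and 12.0% (9.61 to 14.8) of those without, and in 31.3% (20.6 to 43.8) of 67 WTKL cells with Havcr2 and 18.8% (15.7 to 22.3) of those without. The intervals with and without Havcr2 overlap in each library.

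Most Cd274, Cd80 and Cd86 UMIs came from clusters outside the T-lineage, while T-lineage clusters held 1626 of 2838 Pdcd1lg2 UMIs and 2597 of 4193 Lgals9 UMIs in LYZKL, and 1413 of 2087 and 2455 of 3936 in WTKL. Between the libraries Cd274 was higher in the G0s2 neutrophil-like cells of LYZKL. Of 40 pairs of a ligand and a myeloid or B cluster, 39 had enough UMIs, and 5 were higher and 2 lower in LYZKL, against 5.24% and 4.82% of 66644 pairs of any gene and such a cluster. The median log2 ratio was 0.04, beside 0.03 over all genes, and 24 of the 39 were above 0. Of the 5 higher pairs, 2 lay in the mixed plasma-like cluster, where 1063 of 7091 genes tested were higher.

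**Figure D4:**
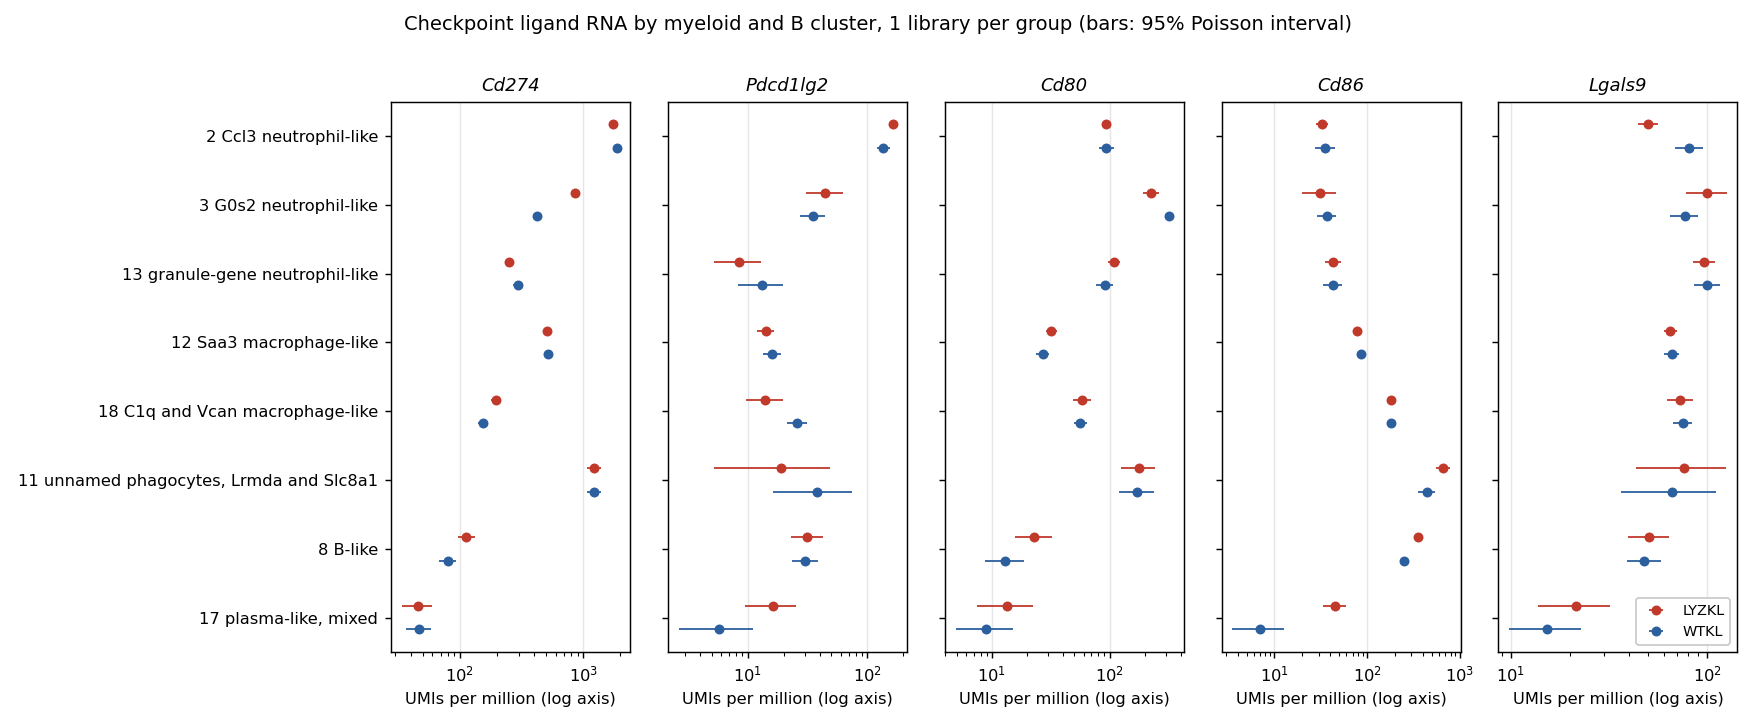
Level of the 5 ligand genes (CPM on a log axis, 1 panel per gene) in each of the 8 myeloid and B clusters, with the LYZKL library in red above the WTKL library in blue and bars for the 95% Poisson interval. Cd274 was highest in Ccl3 neutrophil-like cells (1751 and 1891 CPM), and the G0s2 neutrophil-like cells were apart in the libraries at 865 and 422 CPM.

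Cd274, which encodes PD-L1, was highest in the Ccl3 neutrophil-like cells, whose leading genes also include Acod1 and Il1rn. They had 1751 CPM (1716 to 1786; 9725 UMIs) in LYZKL and 1891 CPM (1830 to 1953; 3616 UMIs) in WTKL, a log2 ratio of -0.11. A UMI was found in 65.0% and 72.5% of thinned cells there. The unnamed phagocytes marked by Lrmda and Slc8a1 had 1225 and 1221 CPM at a low median depth of 2444 and 2139 UMIs. The Saa3 macrophage-like cells, which carry Nos2 and Cfb, had 506 and 516 CPM, the granule-gene neutrophil-like cells, marked by Ngp and Camp, 250 and 294 CPM, the C1q and Vcan macrophage-like cells 195 and 153 CPM and B-like cells 113 and 80.0 CPM. These levels fell in the same order in both libraries apart from the G0s2 neutrophil-like cells, which lay above the Saa3 macrophage-like cells in LYZKL and below them in WTKL.

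In the G0s2 neutrophil-like cells, marked by Il1b, Mmp9 and Csf3r, Cd274 was higher at 865 CPM (800 to 935; 641 UMIs in 226 cells) in LYZKL against 422 CPM (393 to 452; 808 UMIs in 556 cells) in WTKL. The log2 ratio was 1.04 (0.89 to 1.19), in a cluster where 7.31% of 7706 genes were higher, and 38.4% against 21.4% of thinned cells had a UMI. The call held in all 13 alternatives that could be computed, with ratios from 0.72 to 1.04. Median depth was 3167.5 and 3184.5 UMIs. Of 14 genes fixed as inducers or regulators of PD-L1, 4 were higher and 0 lower in this cluster. Among them Irf1, an interferon-induced transcription factor, had 1521 and 638 CPM (1.25, 1.14 to 1.37), and Socs1, a feedback inhibitor of interferon signalling, 234 and 146 CPM (0.68, 0.39 to 0.96). Rela, an NF-kB subunit, stood at 130 and 85.6 CPM and was named after its values were seen. The median log2 ratio of the 14 was 0.07, beside 0.05 over all genes of the cluster.

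Over all neutrophil-like cells Cd274 had 1248 CPM in LYZKL and 885 CPM in WTKL, a pooled log2 ratio of 0.50 (0.45 to 0.55), and -0.0047 with equal cluster weights. The Ccl3 cluster held 12.5% of kept cells in LYZKL and 4.58% in WTKL, and 44.7% and 27.0% of all Cd274 UMIs, while Saa3 macrophage-like cells held 25.8% and 31.4%. Among phagocyte subclusters Cd274 was highest in the Lrmda cells (1306 and 1503 CPM) and in the cells led by Edn1, Rsad2, Cxcl3 and Tnf (806 and 784 CPM). It was low in the Vcan monocyte-like cells (95.3 and 81.7 CPM).

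**Figure D5:**
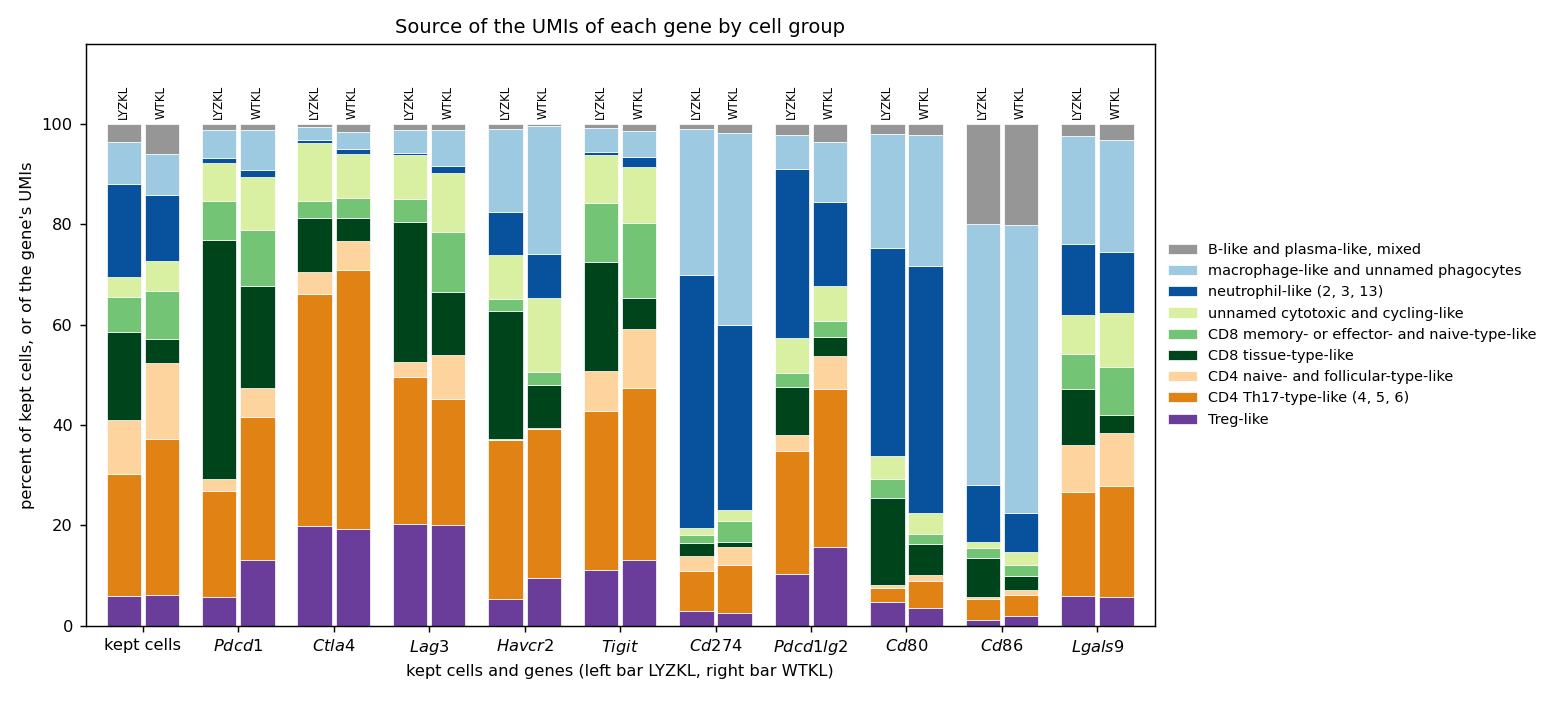
Percent of kept cells (first pair of bars) and of the UMIs of each of the 10 genes held by each cell group, with LYZKL as the left and WTKL as the right bar of a pair. The CD8 tissue-type-like cells held 47.6% of Pdcd1 UMIs in LYZKL and 20.3% in WTKL, and Lgals9 UMIs were spread over the groups.

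T-lineage cells also held Cd274 transcripts at lower levels. Treg-like cells had 138 CPM in LYZKL and 96.4 CPM in WTKL (log2 ratio 0.51, 0.32 to 0.71) and the Il22 and Ccr4 Th17-type-like cells 121 and 87.6 CPM (0.47, 0.33 to 0.61). In CD4 naive-type-like cells Cd274 was higher, at 81.0 and 50.4 CPM (0.68, 0.44 to 0.92), where 2.75% of genes were higher. It was the one T-lineage cluster of 11 past the threshold for Cd274. The CD8 naive-type-like cells had 76.3 and 97.6 CPM (-0.35, -0.63 to -0.09) and the CD8 memory- or effector-like cells 63.5 and 71.1 CPM (-0.16, -0.48 to 0.15). A UMI was found in 13.3% and 8.57% of thinned Treg-like and in 6.93% and 5.11% of thinned CD4 naive-type-like cells, and no cell type was taken as a background for Cd274.

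Pdcd1lg2, which encodes PD-L2, lies 22823 bases after Cd274 on chromosome 19 and had its highest level in the same cluster, the Ccl3 neutrophil-like cells, at 163 and 136 CPM. Across the 38 profiles of 19 clusters in 2 libraries, however, the log2 levels of the neighbours had a Pearson r of 0.33. T-lineage clusters came next for Pdcd1lg2: the Penk and Nrgn cells had 71.4 and 60.3 CPM and Treg-like cells 66.0 and 92.7 CPM. In the C1q and Vcan macrophage-like cells Pdcd1lg2 was lower in LYZKL, at 13.98 CPM (32 UMIs) against 25.8 CPM (111 UMIs), a log2 ratio of -0.88 (-1.498 to -0.303), where 4.02% of all genes tested were lower. The thinned shares of 1.75% and 1.56% were not above background and did not show that order, and the call was lost with the mean of each cell's CPM and reversed to 0.36 at Leiden resolution 0.5. That cluster contains the cDC2-like subcluster led by Ccl17, Mgl2 and Cd209a, with 7 LYZKL and 45 WTKL cells, in which Pdcd1lg2 stood at 57.9 and 84.8 CPM (6 and 58 UMIs). Its part in the value of the cluster was not tested. In the Gzma and Gzmb cluster Pdcd1lg2 was higher in LYZKL (36.8 and 12.9 CPM, 1.51, 0.79 to 2.25), and in follicular-type-like cells lower (25.4 and 38.8 CPM, -0.61, -1.06 to -0.17). A share above the background of CD8 naive-type-like cells in both libraries was seen in 2 of the 8 myeloid and B clusters.

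Cd80 and Cd86, the ligands shared by CTLA-4 and CD28, had different main sources. Cd80 was highest in the G0s2 neutrophil-like cells at 224 and 318 CPM (log2 ratio -0.50, -0.76 to -0.25), then in the Lrmda and Slc8a1 phagocytes (176 and 170 CPM), and lower in the granule-gene neutrophil-like cells (109 and 90.5 CPM) and the Ccl3 neutrophil-like cells (93.6 CPM in each). It was called higher in LYZKL in B-like cells (22.9 and 13.02 CPM, 0.81, 0.04 to 1.60; 32 and 28 UMIs), where 3.33% of genes were higher and the thinned shares of 0.806% and 1.24% were not above background. In the T-lineage, Cd80 was higher in LYZKL in CD8 memory- or effector-like cells (32.3 and 12.2 CPM, 1.40, 0.78 to 2.07), where 5.15% of genes were higher, and in the Gzma and Gzmb cluster (25.5 and 8.45 CPM, 1.60, 0.70 to 2.51). At lower levels it was lower in LYZKL in the Il17a and Il17f cells (2.69 and 5.39 CPM; 23 and 42 UMIs) and in the Il22 and Ccr4 cells (3.41 and 5.63 CPM; 29 and 49 UMIs). Pooled over neutrophil-like cells Cd80 had 109 and 170 CPM, a log2 ratio of -0.64 that was -0.13 with equal weights.

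Cd86 was highest in the Lrmda and Slc8a1 phagocytes, at 663 CPM (139 UMIs) in LYZKL and 440 CPM (93 UMIs) in WTKL, a log2 ratio of 0.59 (0.20 to 0.98) that passed the threshold in 5 of 12 alternatives, in a cluster where 6.87% of genes were higher. B-like cells had 354 and 252 CPM (0.49, 0.32 to 0.67), and the C1q and Vcan macrophage-like cells 180 CPM in each library. Saa3 macrophage-like cells had 78.6 and 85.8 CPM and the neutrophil-like clusters 31.1 to 43.0 CPM in LYZKL and 35.6 to 42.7 CPM in WTKL. Among phagocyte subclusters the nonclassical monocyte-like cells stood highest, with 532 and 523 CPM of Cd86, and they also led for Cd80 (125 and 178 CPM). The cDC2-like cells had 395 and 269 CPM of Cd86. The mixed plasma-like cluster had 44.7 and 7.04 CPM of Cd86 from 50 and 11 UMIs. At low counts in the T-lineage, Cd86 was lower in LYZKL in Treg-like cells (7.41 and 14.1 CPM; 33 and 50 UMIs). It was also lower in the Il17a and Il17f (5.02 and 9.23 CPM; 43 and 72 UMIs) and the Gzma and Gzmb cells (5.10 and 16.9 CPM; 5 and 42 UMIs). In these 3 clusters 3.61%, 7.38% and 5.75% of genes were lower. CD8 naive-type-like cells, the background for shares of Cd86, had 11 and 22 UMIs, and these T-lineage values were not set against it.

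Lgals9 was the most even member: its level lay between 21.4 and 99.9 CPM in all 19 clusters of LYZKL and between 15.4 and 100.2 CPM in those of WTKL. The highest level was in the G0s2 neutrophil-like cells in LYZKL (99.9 and 76.7 CPM) and in the granule-gene neutrophil-like cells in WTKL (96.3 and 100.2 CPM). In Ccl3 neutrophil-like cells Lgals9 was lower in LYZKL, at 50.2 CPM (279 UMIs) against 81.0 CPM (155 UMIs), a log2 ratio of -0.69 (-0.98 to -0.40), in a cluster where 5.27% of 9791 genes were lower. The call was lost in 4 of 14 alternatives, with ratios from -0.74 to -0.30. In the T-lineage Lgals9 was lower in the Gzma and Gzmb cluster (59.2 and 95.3 CPM, -0.69, -1.13 to -0.27). Lgals3, which encodes galectin-3 and is a LAG-3 ligand, was higher in the Ccl3 neutrophil-like cells at 2004 and 1191 CPM (0.75, 0.69 to 0.82).

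T cell transcripts were present in clusters of other types, and more so in WTKL. Each of 7 pan-T markers was detected in all 8 such clusters of both libraries, and their summed level was 146 CPM in LYZKL against 593 CPM in WTKL in G0s2 neutrophil-like cells, 250 and 586 CPM in Ccl3 neutrophil-like cells, 193 and 565 CPM in B-like cells and 635 and 1037 CPM in C1q and Vcan macrophage-like cells, and ran the other way in the mixed plasma-like cluster (1128 and 672 CPM). In T-lineage clusters the sum was 3275 to 5919 CPM and 3333 to 6824 CPM. Over all 3 neutrophil-like clusters Ctla4 (54.6 and 93.6 CPM), Lag3 (2.38 and 5.19 CPM) and Tigit (1.25 and 5.19 CPM) were also lower in LYZKL. Pdcd1 (8.97 and 10.7 CPM) and Havcr2 (36.1 and 38.7 CPM) stayed under 1.5-fold there. The part of T cell transcripts in the ligand values was not tested. Leaving out the 5 phagocyte subclusters with at least 100 CPM of Cd3e (380 LYZKL and 372 WTKL cells) left 6 of the 7 ligand calls. Calls in neutrophil-like, B-like and plasma-like clusters could not change, since no cell of those clusters was left out. Of the calls in phagocytes, Cd86 in the Lrmda and Slc8a1 cluster was lost and Pdcd1lg2 in the C1q and Vcan cluster held.

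Genes that act with the checkpoint members were followed in 6 lists. Of the 14 transcription factors that bind checkpoint genes, counted over 19 clusters, 20 of 236 pairs were higher and 44 lower in LYZKL, beside the 3.76% and 5.24% of pairs higher and 3.71% and 4.82% lower over all genes in T-lineage and in myeloid and B clusters. Among the pairs higher, 5 lay in the mixed plasma-like cluster, which had the largest share of all genes higher. Among those lower, 4, 5 and 4 lay in the Ccl3, G0s2 and granule-gene neutrophil-like clusters and 2 in B-like cells. These clusters held fewer T cell transcripts in LYZKL, and the part of those transcripts was not tested. Tox, a factor of long-stimulated T cells, differed by subset. It was higher in CD8 tissue-type-like cells (297 and 144 CPM, 1.05, 0.89 to 1.21) and in the Gzma and Gzmb cluster (109 and 35.4 CPM, 1.63, 1.21 to 2.05). It was lower in Treg-like cells (353 and 543 CPM, -0.62, -0.72 to -0.53), in follicular-type-like cells (192 and 347 CPM, -0.86, -1.01 to -0.70), in the Il17a and Il17f cells (29.9 and 137 CPM, -2.20, -2.403 to -2.003) and in the Penk and Nrgn cells (121 and 383 CPM, -1.66, -1.84 to -1.48). Tox2 was higher in CD8 memory- or effector-like cells (52.4 and 17.7 CPM). Nr4a2, an early response factor, was lower in Treg-like (84.4 and 135 CPM), follicular-type-like (35.9 and 99.9 CPM) and cycling-like cells (46.6 and 102 CPM).

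Of the 14 inducers of PD-L1, 25 of 261 pairs were higher and 13 lower. Among the 25 higher, 6 lay in the mixed plasma-like cluster, which had the largest share of all genes higher. Over all genes 3.76% of pairs in T-lineage and 5.24% in myeloid and B clusters were higher, and 3.71% and 4.82% lower. Ifng, which encodes interferon gamma, was higher in CD8 memory- or effector-like cells (492 and 210 CPM, 1.23, 1.08 to 1.38), in the Il17a and Il17f cells (263 and 109 CPM, 1.27, 1.16 to 1.39) and in the Gzma and Gzmb cluster (641 and 354 CPM, 0.86, 0.71 to 1.01). In cycling-like cells it was lower (98.2 and 157 CPM). In B-like cells Irf1 (498 and 307 CPM) and Socs1 (211 and 115 CPM) were higher.

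Of the 12 costimulatory counterparts, 19 of 173 pairs were higher and 37 lower. Of those lower, 18 lay in the neutrophil-like and B-like clusters that held fewer T cell transcripts in LYZKL. The part of those transcripts was not tested. Of pairs of any gene, 3.76% in T-lineage and 5.24% in myeloid and B clusters were higher, and 3.71% and 4.82% lower. Cd226, the activating rival of TIGIT, was lower in the Il17a and Il17f cells (158 and 324 CPM, -1.03), the Penk and Nrgn cells (313 and 490 CPM, -0.65) and Treg-like cells (43.3 and 89.9 CPM, -1.05), where Tigit itself was at 54.6 and 53.5 CPM. Tnfrsf4, which encodes the costimulatory receptor OX40, was higher in the Il17a and Il17f cells (263 and 119 CPM) and in CD8 memory- or effector-like cells (62.0 and 20.6 CPM). Tnfrsf9, which encodes 4-1BB, was higher in the Gzma and Gzmb cluster (334 and 109 CPM).

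Of 13 other inhibitory receptors, 8 of 188 pairs were higher and 36 lower. Among those lower, 4, 3 and 4 lay in the Ccl3, G0s2 and granule-gene neutrophil-like clusters and 1 in B-like cells. Another 4 and 2 lay in the Saa3 and the C1q and Vcan macrophage-like clusters. All of these clusters held fewer T cell transcripts in LYZKL, and the part of those transcripts in the lower pairs was not tested. The rest of the lower pairs lay in T-lineage clusters. For this list and the 2 below, the shares over all genes were 3.76% and 5.24% higher and 3.71% and 4.82% lower, in T-lineage and in myeloid and B clusters. Klrg1, a receptor of terminally differentiated lymphocytes, was lower in the Gzma and Gzmb cluster (36.7 and 176 CPM, -2.26, -2.79 to -1.77), and Cd200r1 and Cd96 were lower in Treg-like cells (50.1 and 95.2 CPM, and 30.5 and 57.2 CPM). Of 11 genes of PD-1 and CTLA-4 signalling and traffic 7 of 202 pairs were higher and 18 lower, and 5 of the 7 lay in the mixed plasma-like cluster. Ptpn6, which encodes the phosphatase SHP-1, was lower in follicular-type-like (50.4 and 77.6 CPM) and CD4 naive-type-like cells (41.9 and 79.0 CPM) and higher in the Gzma and Gzmb cluster (105 and 63.9 CPM). Of 18 other ligands and binding partners 8 of 189 pairs were higher and 10 lower, and 3 of the 8 lay in the mixed plasma-like cluster. Sirpa, the receptor of CD47, was higher in the Lrmda and Slc8a1 phagocytes (606 and 383 CPM).

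The genes whose levels ran most like each member were found over the same 38 profiles among 7999 genes, on log2(CPM + 10). These profiles share libraries and depth, and the values describe them only. Pdcd1 was closest to Lag3 (Pearson r 0.93), Rgs16 (0.92) and Stk32c (0.90), and Ctla4 to Pkp3 (0.94), Icos (0.94) and Rora (0.94). Tigit was closest to Ptpn13 (0.94) and Havcr2 to Rbpj (0.87) and Id2 (0.83). On the ligand side Cd274 was closest to Il1a (0.95), Sgpl1 (0.94) and the interferon-induced Oasl2 (0.94). Cd80 was closest to Plekhg3 (0.94) and Cd86 to March1 (0.93), a ubiquitin ligase known to remove CD86 from the cell surface. Pdcd1lg2, whose closest gene was Gnb1 (0.78), and Lgals9, with Ppp1r15b (0.83), had no gene above 0.90. Between members Pdcd1 and Tigit had 0.88, Ctla4 and Tigit 0.87, Cd274 and Cd80 0.76 and Ctla4 and Cd274 -0.63.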

How the data were processed

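The authors deposited raw UMI counts per gene and barcode, whole numbers in a sparse matrix for each library, and per the submitters' processing notes Cell Ranger 6.1.2 and mm10 made them. The matrices hold 13607 LYZKL and 12204 WTKL barcodes where the labels state 7202 and 6609 cells, with 10000 targeted. Barcodes under 500 detected genes (121 and 170) and those above 10% mitochondrially coded UMIs (35 and 31) were removed, leaving 13451 and 12003. The highest Scrublet doublet scores were then removed at a preset 0.8% per 1000 cells in each library, 1447 (10.8%) and 1153 cells (9.61%). Depth had a median of 5327 and 4840 UMIs before doublets were removed.

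Counts were normalized to 10000 per cell and logged, and clusters came from 2000 variable genes, 30 principal components, 15 neighbours and Leiden resolution 1 in scanpy 1.11.5, without the 10 members and without receptor segment, mitochondrially coded, ribosomal and sex-linked genes. The libraries were not integrated. Markers of 30 classes served for naming, and the names were given after the clusters were seen. For shares of cells each cell was thinned to 1000 UMIs, and to 2000 for co-detection. Background shares come from neutrophil-like cells for Pdcd1, Ctla4, Tigit and Lag3, from B-like cells for Havcr2 and from CD8 naive-type-like cells for Cd80, Cd86 and Pdcd1lg2, with none for Cd274 and Lgals9. A pooled value with equal weights gives each cluster the same weight in both libraries, its share of the UMIs of both together. Of each list, a cluster names the 3 genes with the largest absolute log2 ratio among those counted at least 100 times in the 2 libraries together and reaching 30 CPM in one of them, and likeness names 3 genes per member. The calling rule was tried on Poisson counts simulated for the Treg-like cluster (10639 genes). Of the planted changes, 63.5% of 1.5-fold, 98.5% of 2-fold and 100.0% of 4-fold were called the right way, and 98.8% of unchanged genes were not called. In the real cluster 2.24% of genes were higher and 3.61% lower. The simulation holds counting error only, so it cannot check the rule against differences between mice, sorts or libraries. The members, lists and markers were chosen with earlier results of these data known. Python 3.11.15, scipy 1.17.1, R 4.3.3 and edgeR 4.0.16 (for TMM scaling) were used. The deposited gene and barcode files served as names only. Some alleles and genes are not reported here.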

Additional observations from a re-analysis of the deposited data

Results flagged for a closer look

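Pdcd1 moved in different directions in different T-lineage clusters, with log2 ratios of LYZKL over WTKL of 0.89 in the Gzma and Gzmb cluster and 1.27 in CD8 naive-type-like cells, and -0.63 in Treg-like cells. Lag3 did likewise, with 0.90 in the Il17a and Il17f cells, 0.67 in the Gzma and Gzmb cluster, 0.75 in cycling-like cells and -0.996 in follicular-type-like cells. Pdcd1lg2 was at 1.48 in the mixed plasma-like cells and -0.88 in the C1q and Vcan macrophage-like cells. The plasma-like value rested on 18 UMIs in LYZKL and 9 in WTKL. In both of these clusters the thinned shares of Pdcd1lg2 were not above background in either library. The Pdcd1 value in CD8 naive-type-like cells rested on 15 and 12 UMIs, also at a background share. Each gene is singled out because the libraries were apart by at least 1.5-fold in opposite directions in 2 or more clusters. With 1 library per group the difference between clusters was not tested.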

How the results depend on the processing

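Of 17 alternative settings, 4 were added after the data were seen: shared barcodes left out, Treg-like cells with a Trdc UMI left out, phagocyte subclusters with T cell transcripts left out and equal cluster weights. The 7 receptor pairs higher in LYZKL became 4 at Leiden resolution 0.5 and 4 with member genes among the variable genes, and the 3 lower became 5 at 200 detected genes, 5 at Leiden resolution 2 and 6 with the mean of each cell's CPM. The 5 ligand pairs higher became 3 at 200 detected genes, 3 with doublets kept and 1 at Leiden resolution 0.5, and the 2 lower became 1 at 1000 detected genes, 1 at 5% mitochondrially coded UMIs, 4 at Leiden resolution 0.5 and 1 with the mean of each cell's CPM. The 53 of 79 pairs with a share above background in both libraries became 32 at Leiden resolution 0.5, which merged clusters. At that resolution 5 classes were not found, and 70 pairs of a member and a cluster had a value, against 95 at Leiden resolution 2. Of the 17 called pairs 10 had a value there, of which 6 were called the same way, and 7 other calls were made. The lower counts at Leiden resolution 0.5 therefore include pairs without a value, which are not calls lost on a new ratio. The Pdcd1 log2 ratio over all T-lineage cells was 0.047 with equal cluster weights, and the Cd274 log2 ratio over all neutrophil-like cells 0.44 with doublets kept and -0.0047 with equal cluster weights. The Pdcd1lg2 log2 ratio in plasma-like, mixed cells reversed to -0.61 at 1000 detected genes, -0.48 with doublets kept, -0.28 at Leiden resolution 0.5 and -0.058 with classes from marker UMIs, and the Pdcd1lg2 log2 ratio in C1q and Vcan macrophage-like cells reversed to 0.36 at Leiden resolution 0.5. The causes of these changes were not tested. Of the 17 called pairs, Cd274 in G0s2 neutrophil-like cells and Pdcd1 in the Gzma and Gzmb cluster held in each alternative computed. TMM scaling moved ratios by -0.24 to 0.11 on the log2 scale, by more than 0.1 in the mixed plasma-like (-0.24), CD8 naive-type-like (-0.14), Gzma and Gzmb (-0.11) and granule-gene neutrophil-like (0.11) clusters. Shares have no value under the settings that only rescale totals, and classes from marker UMIs were found for 45 pairs, in which 3 of 9 calls held and 6 others were made. No paired analysis was possible because each group is 1 library. Intervals cover counting error only, and small clusters such as the 59 and 70 plasma-like cells limit what could be called.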
